A study of Homo sapiens with 12 samples.

Results

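The levels of 10 genes used as markers of intestinal stem cells were followed in HT-29, an established cell line from a human colon adenocarcinoma whose APC is mutant: LGR5, LGR4, ASCL2, SOX9, LRIG1, PROM1, CD44, TNFRSF19, PROX1 and MSI2. They were chosen by symbol, with earlier results of these data known, and all 10 have a row among the 25528 rows of the expression table. The 12 RNA-seq libraries, 3 in each of 4 groups, came from cells infected with lentivirus. In the CTNNB1 arm the virus carried an open reading frame for CTNNB1 (beta-catenin) or, as the control, for GFP, and RNA was taken on day 2 after infection. In the shAPC arm the virus carried a hairpin against APC (shAPC) or the control hairpin shNT1, and RNA was taken on day 1 after induction with 2 µM doxycycline. Every group shares the mutant APC of the line and the viral infection, so no group is an unmodified cell. The labels do not say that the 3 libraries of a group came from separate cultures, so p-values measure only the spread between these libraries.

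The crypts of the intestine are renewed from stem cells at their base, where WNT signalling is strong. WNT signals keep beta-catenin from being degraded by a complex that contains APC, and beta-catenin then works with TCF/LEF factors to switch on target genes. LGR5 is the best known marker of the cycling crypt base cells. LGR5 and its relative LGR4 are receptors for R-spondins, secreted proteins that raise WNT signalling by removing the ubiquitin ligases RNF43 and ZNRF3 from the cell surface. ASCL2 is a transcription factor that works with WNT signalling to keep the stem cell state, and SOX9 is a transcription factor of the crypt base. In colorectal tumours several of these genes are used to describe the more stem-like cells.

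Levels are transcript abundances (TPM), a unit corrected for transcript length and scaled so that all libraries have equal totals, and levels can be compared between genes. Between 14756 and 16186 genes had a TPM above 0 in a library. Colon epithelial genes were present: 7 of 9 listed markers averaged at least 1 TPM, while the intestinal transcription factors CDX1 and CDX2 stayed under 1 TPM in every group mean. None of 6 fibroblast or 4 endothelial markers averaged 1 TPM, and their summed levels were 0.645 to 1.60 TPM and 0.105 to 0.478 TPM. The leukocyte markers PTPRC and CD3E were at or near 0, whereas CD68 and LYZ, which epithelial cells also express, were detected. CD68 was called lower in both arms (26.96 to 13.2 TPM and 13.8 to 7.51 TPM, log2 difference -0.98 and -0.81, limma adjusted p = 2.4e-05 and 6.7e-04). Among the epithelial genes KRT20, a keratin of differentiated colon cells, was called lower with shAPC (106 to 69.3 TPM, log2 difference -0.61, limma adjusted p = 1.7e-04) and not with CTNNB1 (-0.01, limma adjusted p = 0.90). The other epithelial markers tested moved in mixed directions. KRT8, KRT18 and VIL1 were called higher with CTNNB1 only (log2 difference 0.17, 0.28 and 0.47, largest limma adjusted p = 0.0078). KRT19 was called lower in both arms (-0.21 and -0.42) and CDH1 with shAPC only (-0.33, largest limma adjusted p = 0.0055). EPCAM was called in neither arm. The part of these shifts in the results was not tested. The hairpin target APC stood at 16.4 ± 0.80 TPM with shNT1 and at 5.99 ± 0.56 TPM with shAPC (SD, n = 3 each). CTNNB1 transcripts stood at 146 ± 2.9 TPM with GFP and at 160 ± 4.2 TPM with the CTNNB1 virus, a change that was not called (log2 difference 0.13, limma adjusted p = 0.059).

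In the CTNNB1 arm, LGR5, ASCL2, LRIG1, PROM1, SOX9 and MSI2 rose and LGR4 fell. In the shAPC arm, LGR5, ASCL2, PROX1, LRIG1, PROM1 and SOX9 rose, and LGR4 fell again. CD44, the most abundant of the 10, was not called in either arm. Changes are differences in log2(TPM + 1) from limma, a linear model that shares variance information across genes, and a gene was called at a Benjamini-Hochberg adjusted p under 0.05 over all genes tested. Only genes with a mean of at least 1 TPM over the 6 libraries of an arm were tested. PROX1 passed this filter in the shAPC arm only through its level in shAPC. Adding 1 before the logarithm understates the change of weakly expressed genes.

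Of the 10 members, 8 averaged at least 1 TPM in both control groups and were tested in both arms. Among these 8, 6 were called higher and 1 lower in the CTNNB1 arm, where 16.3% of all 11624 genes tested were called higher and 7.16% lower (23.5% in either direction). In the shAPC arm 5 of the 8 were called higher and 1 lower, beside 7.24% higher and 14.9% lower among 11834 genes (22.1% in either direction). The balance over all genes moved with the scaling: median-ratio scaling gave 1254 higher and 1461 lower in the CTNNB1 arm, against 1898 and 832, and 1264 higher and 1589 lower in the shAPC arm, against 857 and 1758. The calls of the 8 members stayed at 7 and 6 in number under it. Of the same 8, LGR5, ASCL2, SOX9, LRIG1 and PROM1 (5 members) were called higher in both arms and LGR4 lower in both, beside 4.08% and 3.24% of the genes tested in both. The median change of the 8 was 0.41 in the CTNNB1 arm and 0.25 in the shAPC arm, against 0.06 and -0.04 for all genes tested. PROX1 passed the filter in the shAPC arm only through its level in shAPC, and TNFRSF19 was tested in neither arm. The CTNNB1 and GFP libraries did not overlap for 7 of the 8 members, against 43.2% of all genes tested. The shAPC and shNT1 libraries also did not overlap for 7 of the 8, against 40.9%. Because the members were chosen with earlier results of these data known, these counts describe them and are no independent test.

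**Figure D1:**
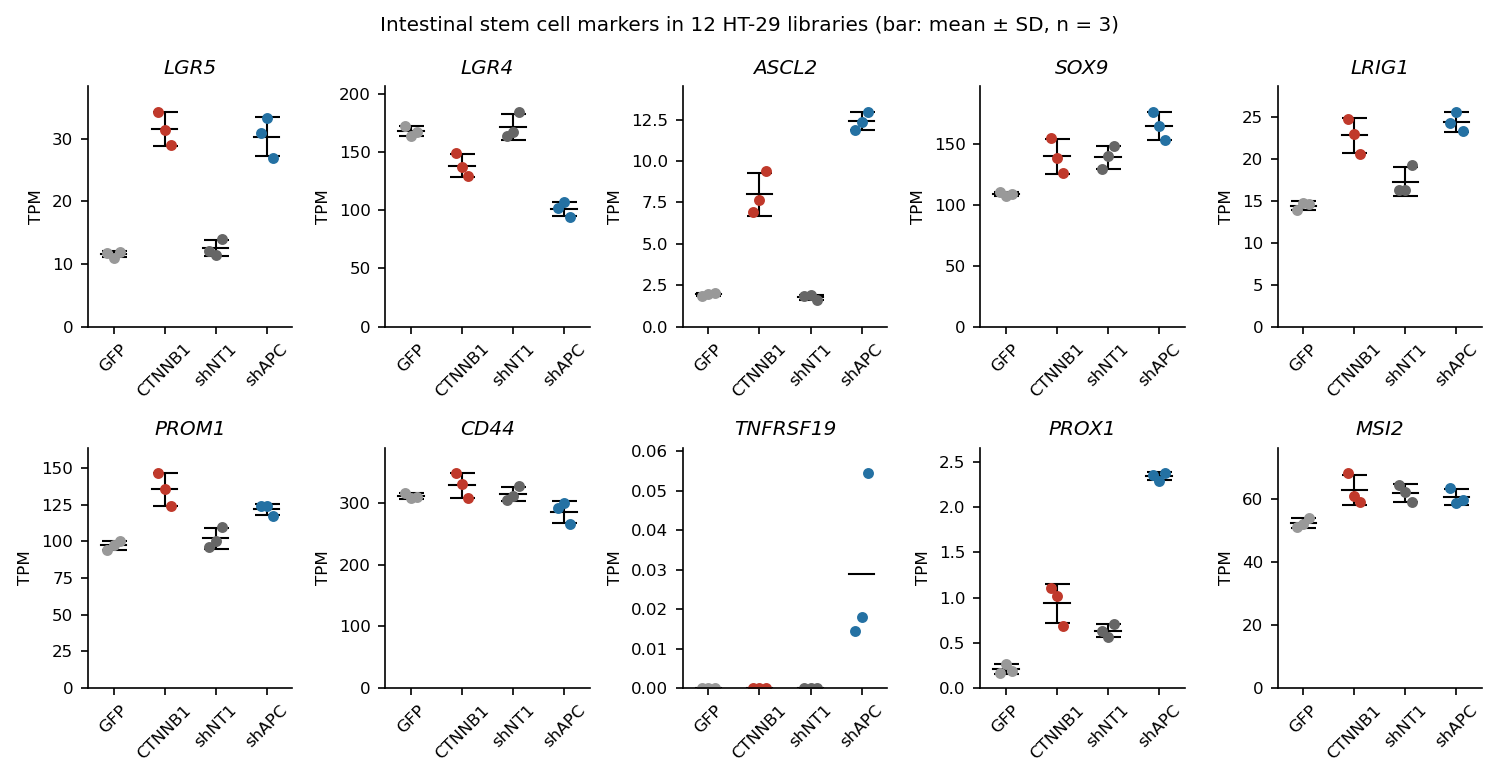
TPM (y axis, from 0, a scale of its own for each gene) of the 10 members in the GFP, CTNNB1, shNT1 and shAPC groups (x axis). Each point is a library, and the bars give the mean and SD (n = 3; mean only for TNFRSF19). LGR5 and ASCL2 stand apart from their controls in both perturbed groups, LGR4 is lower in both, and CD44 stays between 265 and 348 TPM.

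Promoter sequence was available for 6 of the 10 members from RefSeq (GRCh38.p14), as windows of 300 bases from 250 before to 50 after an annotated start. The 250 bases before the outermost start are shown for LGR4, the member that fell in both arms, for LRIG1, which rose in both, and for MSI2, which holds the only matches to a TCF/LEF core among the 6 outermost windows. Sequences run 5′ to 3′ on the strand of the gene, and capitals mark a match to CTTTGA on either strand. The LGR4 stretch is chr11:27472791-27473040 on the minus strand, the LRIG1 stretch chr3:66501122-66501371 on the minus strand and the MSI2 stretch chr17:57255601-57255850 on the plus strand.
LGR4: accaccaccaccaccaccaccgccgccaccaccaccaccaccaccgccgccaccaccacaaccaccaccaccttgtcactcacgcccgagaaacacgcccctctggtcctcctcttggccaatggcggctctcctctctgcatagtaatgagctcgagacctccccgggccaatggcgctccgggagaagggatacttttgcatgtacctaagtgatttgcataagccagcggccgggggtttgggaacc
LRIG1: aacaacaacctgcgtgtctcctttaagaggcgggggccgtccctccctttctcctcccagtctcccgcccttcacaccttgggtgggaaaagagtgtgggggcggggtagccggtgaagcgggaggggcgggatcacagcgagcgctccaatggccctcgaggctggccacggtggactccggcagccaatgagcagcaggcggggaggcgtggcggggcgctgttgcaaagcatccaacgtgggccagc
MSI2: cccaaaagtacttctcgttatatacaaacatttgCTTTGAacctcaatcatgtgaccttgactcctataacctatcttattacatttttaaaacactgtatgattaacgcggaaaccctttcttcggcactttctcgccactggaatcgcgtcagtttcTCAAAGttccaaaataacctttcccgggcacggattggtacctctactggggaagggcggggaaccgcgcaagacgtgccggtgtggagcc
The MSI2 matches begin 216 and 91 bases before the start, the first as CTTTGA and the second as its reverse complement TCAAAG. The outermost windows of LGR4, LRIG1, PROM1, CD44 and TNFRSF19 hold no CTTTGA. For LGR4 and LRIG1 the bases shortly after the outermost start were not found in a transcript of the gene in a second annotation (GENCODE). For the other members with a window they were found. Over all 35116 promoter windows in the table, 12.9% hold CTTTGA on either strand. The longer string CTTTGAT, which contains the first, is in none of the 6 outermost windows and in 2.6% of all windows. The shares over all windows include alternative starts, and of the 4 windows of PROM1 an inner 1 holds both strings. An E-box string, CAGCTG, is in the TNFRSF19 window and in 17.9% of all windows. These matches are letters in a window, and binding was not measured here.

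The R-spondin receptors LGR5 and LGR4 moved in opposite directions. LGR5 (ENSG00000139292, GRCh38 chr12:71439129-71586310) stood at 11.7, 11.0 and 11.9 TPM in GFP and at 34.3, 31.3 and 28.97 TPM in the CTNNB1 libraries. It stood at 12.1, 11.5 and 14.0 TPM in shNT1 and at 30.9, 33.3 and 26.9 TPM in shAPC. Both control groups were low and both perturbed groups high, with no overlap within an arm. The mean ratio was 2.74-fold in the CTNNB1 arm (log2 difference 1.38, SE 0.07, limma adjusted p = 3.8e-06) and 2.42-fold in the shAPC arm (1.21, SE 0.09, limma adjusted p = 2.4e-05). LGR5 ranked at place 26 of 11624 genes by rise in the CTNNB1 arm and at place 37 of 11834 in the shAPC arm. The libraries of the CTNNB1 and shAPC groups overlapped, as did those of GFP and shNT1.

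LGR4 (ENSG00000205213, chr11:27365961-27472790) is the broadly expressed receptor of the pair, and it was far more abundant than LGR5 in every library. It stood at 172, 164 and 167 TPM in GFP and at 149, 137 and 129 TPM in the CTNNB1 libraries. In shNT1 it stood at 163, 167 and 185 TPM, and in shAPC at 102, 107 and 94.1 TPM. Every perturbed library lay below every library of its control. The fall was 17.6% of the GFP mean in the CTNNB1 arm (log2 difference -0.28, SE 0.06, limma adjusted p = 0.0071). With shAPC the mean fell by 41.2% (log2 difference -0.76, SE 0.07, limma adjusted p = 4.6e-05).

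Within a library, LGR5 made up 6.27% to 6.63% of the summed TPM of LGR4, LGR5 and LGR6 in GFP and 18.3% to 18.7% in the CTNNB1 group. The share was 6.43% to 7.07% in shNT1 and 22.2% to 23.7% in shAPC. LGR4 was thus 13.1 to 14.9 times as abundant as LGR5 in the control libraries, 4.33 to 4.45 times in the CTNNB1 libraries and 3.21 to 3.49 times in the shAPC libraries. The shares came from the same values as the fold changes above and are a description with no test. The summed level of the 3 receptors went from 184 ± 12 TPM in shNT1 to 132 ± 9.6 TPM in shAPC, and stood at 179 ± 4.5 and 170 ± 13 TPM in GFP and CTNNB1 (SD, n = 3 each). LGR6, the remaining relative, was near 0 at 0.102 to 0.329 TPM. Its means went from 0.137 to 0.246 TPM with CTNNB1 and from 0.121 to 0.235 TPM with shAPC, without overlap within an arm. It was too low to be tested, and without the filter neither change was called (limma adjusted p = 0.15 and 0.064).

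**Figure D2:**
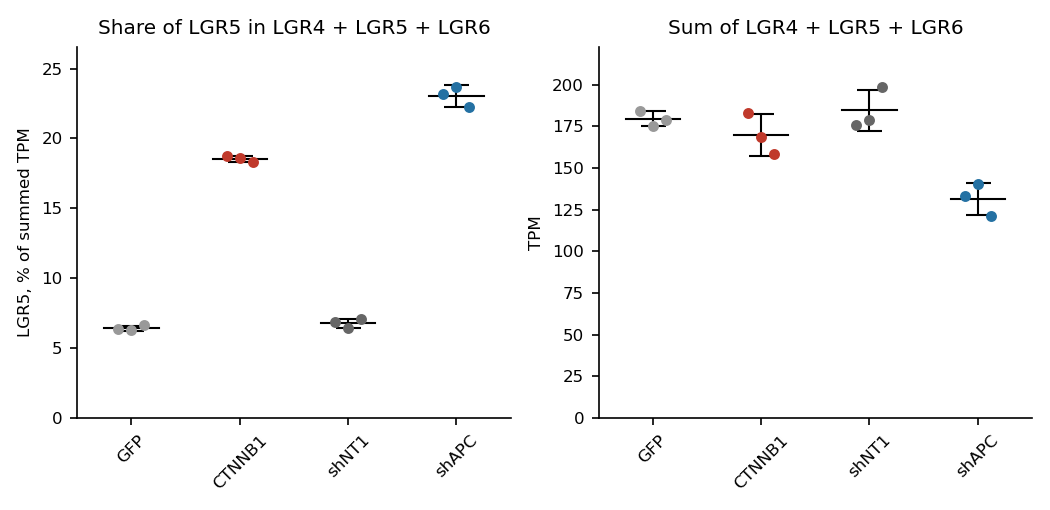
Left, LGR5 as a percentage of the summed TPM of LGR4, LGR5 and LGR6 (y axis, from 0) in each group (x axis). Right, that sum in TPM. Points are libraries and bars the mean and SD (n = 3). The LGR5 share lies at 6.27% to 7.07% in the control libraries, 18.3% to 18.7% in the CTNNB1 group and 22.2% to 23.7% in shAPC.

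On the ligand side, RSPO1 and RSPO3 were listed at 0 in every library, and RSPO2 and RSPO4 averaged 0.012 TPM or less in each group. The ubiquitin ligase ZNRF3 rose in both arms, from 26.4 ± 1.1 to 43.2 ± 3.0 TPM (log2 difference 0.69, limma adjusted p = 9.2e-05) and from 29.5 ± 1.4 to 48.5 ± 4.4 TPM (0.70, limma adjusted p = 1.4e-04; SD, n = 3 each). RNF43 rose in the shAPC arm, from 77.2 ± 4.7 to 104 ± 7.4 TPM (0.43, limma adjusted p = 0.0016). In the CTNNB1 arm RNF43 stood at 85.3 ± 1.8 and 91.2 ± 4.3 TPM (0.10, limma adjusted p = 0.20), and the difference between the arms was called (-0.33, limma adjusted p = 0.020). Of the 9 R-spondin reception genes listed, 4 were tested: LGR4, LGR5, RNF43 and ZNRF3. The counts repeat the calls given above for these genes, and RNF43 and ZNRF3 are also among the 21 other stem cell genes below. With CTNNB1, 2 of the 4 passed as higher and 1 as lower, beside 16.3% and 7.16% of all genes. With shAPC 3 passed as higher and 1 as lower, beside 7.24% and 14.9%.

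Among the transcription factors, ASCL2 had the largest log2 difference of the members tested in each arm. ASCL2 (ENSG00000183734, chr11:2268498-2270588) stood at 1.84, 1.96 and 2.05 TPM in GFP and at 6.90, 7.63 and 9.42 TPM in the CTNNB1 libraries. It stood at 1.82, 1.88 and 1.58 TPM in shNT1 and at 11.9, 12.4 and 13.0 TPM in shAPC. All shAPC libraries lay above all CTNNB1 libraries, and these above all control libraries. The mean ratio was 4.09-fold in the CTNNB1 arm (log2 difference 1.60, SE 0.11, limma adjusted p = 1.9e-05) and 7.05-fold in the shAPC arm (2.28, SE 0.09, limma adjusted p = 3.5e-07). By log2 difference it ranked at place 10 in the CTNNB1 arm and at place 3 in the shAPC arm. With a pseudocount of 0.1 the differences were 1.97 and 2.75.

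SOX9 (ENSG00000125398, chr17:72121020-72126416) was abundant already in the controls. It stood at 110, 107 and 109 TPM in GFP and at 154, 139 and 126 TPM in the CTNNB1 libraries, a log2 difference of 0.35 (SE 0.07, limma adjusted p = 0.0056). It stood at 129, 140 and 148 TPM in shNT1 and at 176, 164 and 153 TPM in shAPC, a log2 difference of 0.24 (SE 0.07, limma adjusted p = 0.030). The groups did not overlap within either arm, but the shNT1 libraries overlapped those of the CTNNB1 group. The call in the shAPC arm was lost without the filter (adjusted p = 0.082), without the variance trend (adjusted p = 0.068) and with the replicate number as a block (adjusted p = 0.068). The stricter threshold of 0.01 ended the call too. Leaving out shNT1 replicate 1, shNT1 replicate 2, shAPC replicate 1 or shAPC replicate 2 also ended it, with adjusted p-values of 0.11, 0.054, 0.10 and 0.082.

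PROX1 (ENSG00000117707, chr1:213983151-214041510), a homeobox factor that colorectal tumours can express downstream of WNT signalling, was low throughout. Its levels were 0.171, 0.270 and 0.190 TPM in GFP and 1.10, 1.02 and 0.690 TPM in the CTNNB1 libraries. In shNT1 they were 0.630, 0.562 and 0.706 TPM and in shAPC 2.36, 2.29 and 2.38 TPM. The groups did not overlap within either arm, and the 3 shAPC libraries were the highest of the 12. With shAPC the log2 difference was 1.03 (SE 0.11, limma adjusted p = 2.2e-04), a 3.70-fold ratio of means. PROX1 passed the filter in this arm only through its level in shAPC (mean 2.34 TPM, against 0.633 TPM in shNT1). Without the filter on low values its limma adjusted p in this arm was 0.0011. In the CTNNB1 arm PROX1 averaged 0.573 TPM and was not tested. Without the filter on low values its log2 difference there was 0.67 (SE 0.09, limma adjusted p = 0.0067), and its ratio of means was 4.46-fold.

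The surface proteins came next. LRIG1 (ENSG00000144749, chr3:66378797-66501121), a membrane protein that restrains EGF receptor signalling and marks intestinal stem cells, rose in both arms. It stood at 13.9, 14.7 and 14.6 TPM in GFP and at 24.7, 23.0 and 20.6 TPM in the CTNNB1 libraries (log2 difference 0.62, SE 0.07, limma adjusted p = 3.4e-04). It stood at 16.3, 16.3 and 19.3 TPM in shNT1 and at 24.2, 25.6 and 23.3 TPM in shAPC (0.48, SE 0.08, limma adjusted p = 0.0021). Both perturbed groups lay above both control groups without overlap. The ratios of means were 1.58-fold and 1.41-fold.

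PROM1 (ENSG00000007062, chr4:15968228-16084023) encodes CD133, a membrane protein widely used to sort tumour cells. It stood at 94.2, 97.6 and 100.1 TPM in GFP and at 146, 136 and 124 TPM in the CTNNB1 libraries (log2 difference 0.47, SE 0.06, limma adjusted p = 7.1e-04). In shNT1 it stood at 96.1, 100.4 and 110.0 TPM and in shAPC at 124, 124 and 117 TPM (0.25, SE 0.06, limma adjusted p = 0.015). The perturbed libraries lay above their controls in both arms. In the shAPC arm the call was lost without shNT1 replicate 1, shAPC replicate 1 or shAPC replicate 2, with adjusted p-values of 0.064, 0.051 and 0.054. The stricter threshold of 0.01 ended that call too.

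CD44 (ENSG00000026508, chr11:35139171-35232402), a receptor for hyaluronan with many splice forms that this gene-level table does not separate, was the most abundant member. It stood at 316, 308 and 310 TPM in GFP and at 348, 331 and 308 TPM in the CTNNB1 libraries, which overlapped (log2 difference 0.08, 95% confidence interval -0.04 to 0.19, limma adjusted p = 0.30). In shNT1 it stood at 305, 312 and 327 TPM and in shAPC at 292, 300 and 265 TPM. The shAPC libraries lay below those of shNT1, with a log2 difference of -0.14 (95% confidence interval -0.27 to -0.01) that was not called (limma adjusted p = 0.11).

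TNFRSF19 (ENSG00000127863, chr13:23570412-23676093), the receptor also called TROY, was listed at 0 in all 9 libraries of the other groups and at 0.0145, 0.0179 and 0.0544 TPM in shAPC. The depth behind these values is unknown, and no fold was formed. MSI2 (ENSG00000153944, chr17:57255851-57701581), an RNA-binding protein of stem and progenitor cells, stood at 51.0, 52.0 and 54.0 TPM in GFP and at 68.0, 60.8 and 59.1 TPM in the CTNNB1 libraries. The log2 difference was 0.25 (SE 0.06, limma adjusted p = 0.017), and the call was lost without GFP replicate 1 or GFP replicate 2 (adjusted p = 0.070 and 0.067). That call was also lost at the stricter threshold of 0.01. In the shAPC arm MSI2 stood at 64.4, 62.1 and 58.9 TPM in shNT1 and at 63.5, 58.8 and 59.7 TPM in shAPC, which overlapped. Its log2 difference there was -0.03 (95% confidence interval -0.15 to 0.10, limma adjusted p = 0.78). GFP was the lowest group for MSI2, and the ranges of the other 3 groups overlapped.

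**Figure D3:**
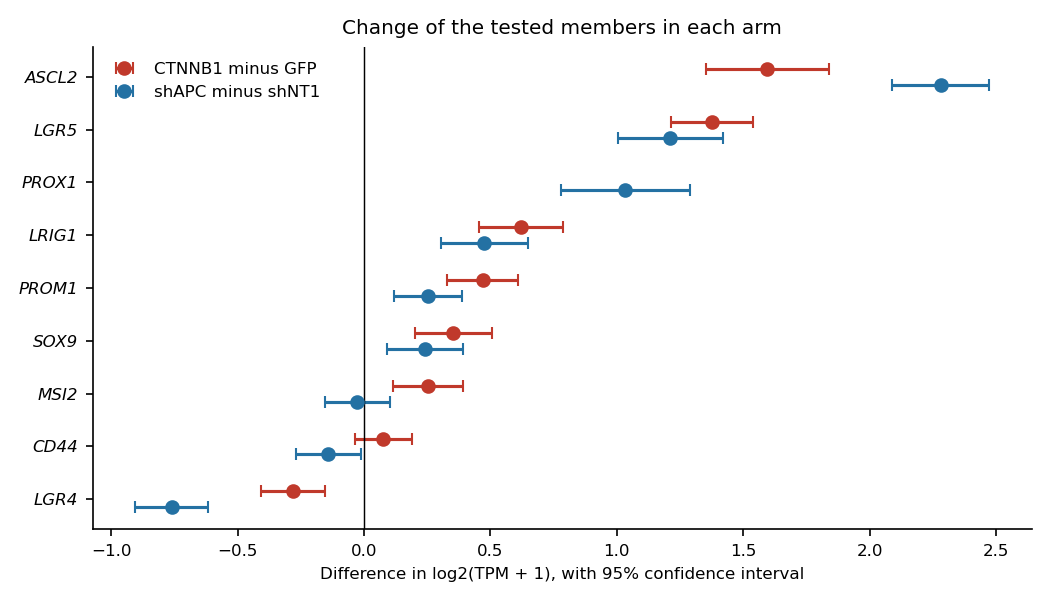
Difference in log2(TPM + 1) between perturbed and control libraries (x axis) for each tested member (y axis), with 95% confidence intervals from limma. CTNNB1 minus GFP and shAPC minus shNT1 are drawn separately, and PROX1 was tested only in the shAPC arm. It passed the filter there only through its level in shAPC. Of the members tested, ASCL2 has the largest log2 difference in each arm (1.60 and 2.28), and LGR4 is the member called lower (-0.28 and -0.76). In the CTNNB1 arm the untested PROX1 had a larger ratio of means (4.46-fold) than ASCL2 (4.09-fold).

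Unequal change in the arms was tested for each member by subtracting the shAPC effect from that of CTNNB1 in a single fit of all 12 libraries. Of the 8 members above 1 TPM in both control groups, 2 had a positive difference that was called and 1 a negative one, beside 13.3% and 2.76% of all 11741 genes (16.1% in either direction). ASCL2 rose less with CTNNB1 than with shAPC (difference -0.69, SE 0.14, limma adjusted p = 0.0054). LGR4 also moved less with CTNNB1 (0.48, SE 0.09, limma adjusted p = 0.0035). MSI2 differed by 0.28 (SE 0.08, limma adjusted p = 0.037), a call that was lost under median-ratio scaling (0.17, adjusted p = 0.15), quantile normalization (0.15, adjusted p = 0.20), no filter (adjusted p = 0.060), no variance trend (adjusted p = 0.058) and the stricter threshold of 0.01. It was also lost when GFP replicate 1 or 2, CTNNB1 replicate 1 or 2, shNT1 replicate 1 or 2, or shAPC replicate 2 or 3 was left out (adjusted p = 0.050 to 0.089). The median difference of all genes was 0.11 for TPM as deposited and 0.00 under median-ratio scaling, so a positive difference of that size is shared by the average gene. Median-ratio scaling gave 786 positive and 650 negative calls over all genes, against 1561 and 324. Under that scaling ASCL2 differed by -0.77 (adjusted p = 0.0061) and LGR4 by 0.37 (adjusted p = 0.0061).

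The remaining members did not pass this test. For LGR5 the difference was 0.16 with a 95% confidence interval of -0.10 to 0.43 (limma adjusted p = 0.39). For LRIG1 it was 0.14 (-0.09 to 0.38, limma adjusted p = 0.39), for SOX9 0.11 (-0.11 to 0.33, limma adjusted p = 0.48) and for PROM1 0.22 (0.02 to 0.41, limma adjusted p = 0.11). For CD44 it was 0.22 (0.05 to 0.39, limma adjusted p = 0.074) and for PROX1 -0.36 (-0.70 to -0.02, limma adjusted p = 0.13). The PROX1 value rests on the pseudocount of 1: with 0.1 it was -0.010 (limma adjusted p = 0.99), and the ratio of means was larger with CTNNB1 (4.46-fold) than with shAPC (3.70-fold). PROX1 also passed the filter here only through its level in shAPC. Without CTNNB1 replicate 3, PROM1 and CD44 were also called, which made 5 members. Over all genes, fits without a single library gave 995 to 2143 calls, against 1885 with all 12 libraries. The arms differ in vector, collection day and doxycycline, which cannot be told apart from the arm.

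Some members stood at different levels in the 2 control groups, at about the share seen over all genes. SOX9, LRIG1, PROX1 and MSI2 were higher in all shNT1 libraries than in all GFP libraries, and the other 5 members detected overlapped. That is 4 of 9, where 48.5% of all 11741 genes did not overlap between these groups and 33.8% were higher in shNT1. Between the perturbed groups 2 of the 9, ASCL2 and PROX1, were higher in all shAPC libraries than in all CTNNB1 libraries. Another 2 of the 9, LGR4 and CD44, were lower. Over all genes 42% did not overlap there, so the share among the members was near that of all genes.

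Libraries of a group also varied together. In the CTNNB1 group replicate 1 was the highest and replicate 3 the lowest library for 8 of the 9 members detected, and the reverse held for ASCL2. In shNT1 replicate 3 was the highest for 7 of the 9, and in shAPC replicate 3 was the lowest for 6. The same order was not counted over all genes, so it is not shown to be particular to the members. The median-ratio scaling factor was 1.05 for CTNNB1 replicate 1 and 1.00 for replicate 3, 1.05 for shNT1 replicate 3 and 0.962 for shAPC replicate 3. The part of this in the results was not tested beyond the scaling alternatives. Coefficients of variation in GFP were 1.39% to 5.22% for the 8 members above 1 TPM and in CTNNB1 6.21% to 16.3%. In these bulk samples, a larger share of cells expressing a marker and more RNA per cell cannot be told apart.

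From a list of 21 other intestinal stem cell genes, also chosen with earlier results of these data known, 14 were tested in each arm. In the CTNNB1 arm 8 were called higher and 0 lower, beside 16.3% and 7.16% of all genes, and median-ratio scaling gave 8 and 2. In the shAPC arm 8 were called higher and 2 lower, beside 7.24% and 14.9%, and that scaling gave 9 and 2. Their median log2 difference was 0.34 and 0.39, beside 0.06 and -0.04 for all genes. Called higher in both arms were AXIN2, EPHB2, EPHB3, MEX3A, CDCA7 and ZNRF3. AXIN2, a scaffold of the complex that degrades beta-catenin, rose by 1.04 and 1.59 on the log2 scale (limma adjusted p = 3.0e-06 and 3.5e-07). EPHB2, a receptor that positions cells along the crypt, went from 2.05 to 5.52 TPM and from 1.59 to 4.81 TPM (log2 difference 1.10 and 1.16, limma adjusted p = 5.1e-05 and 6.5e-05). Its relative EPHB3 rose by 0.80 and 0.55, the RNA-binding protein MEX3A by 0.90 and 0.66, and CDCA7 by 0.43 and 0.34 (largest limma adjusted p = 0.0049).

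SLC12A2, an ion cotransporter, rose in the CTNNB1 arm (log2 difference 0.52, limma adjusted p = 8.0e-04) and stood at 858 and 844 TPM in shNT1 and shAPC (-0.02, limma adjusted p = 0.82). ALDH1A1, an aldehyde dehydrogenase, rose in the shAPC arm (0.44, limma adjusted p = 1.5e-04), and its log2 difference with CTNNB1 was -0.16 (limma adjusted p = 0.069). The 2 genes called lower in shAPC were the integrin ITGA6 (-0.47, limma adjusted p = 7.5e-04) and the surface protein CD24 (-0.37, limma adjusted p = 8.6e-04), the latter named after its values were seen. For these 4 genes the difference between the arms was itself called (SLC12A2 0.55, ALDH1A1 -0.60, ITGA6 0.38, CD24 0.39, largest limma adjusted p = 0.0082). In GFP, CTNNB1, shNT1 and shAPC, ALDH1A1 averaged 1544, 1381, 1031 and 1399 TPM and CD24 1145, 1162, 1422 and 1101 TPM. The control shNT1 was thus the group that stood apart for both. For ITGA6 it was shAPC, at 429, 403, 405 and 293 TPM in the same order. What set shNT1 apart was not tested. OLFM4 and DCLK1 were listed at 0 in every library, and SMOC2, BMI1, HOPX, TERT and MSI1 averaged under 1 TPM in every group. HOPX went from 0.679 to 0.375 TPM with CTNNB1, where libraries overlapped, and from 0.931 to 0.414 TPM with shAPC, without overlap. Without the filter its log2 differences were -0.28 and -0.45 (limma adjusted p = 0.19 and 0.019). For SMOC2, BMI1, TERT and MSI1 no unfiltered limma adjusted p was under 0.05.

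**Figure D4:**
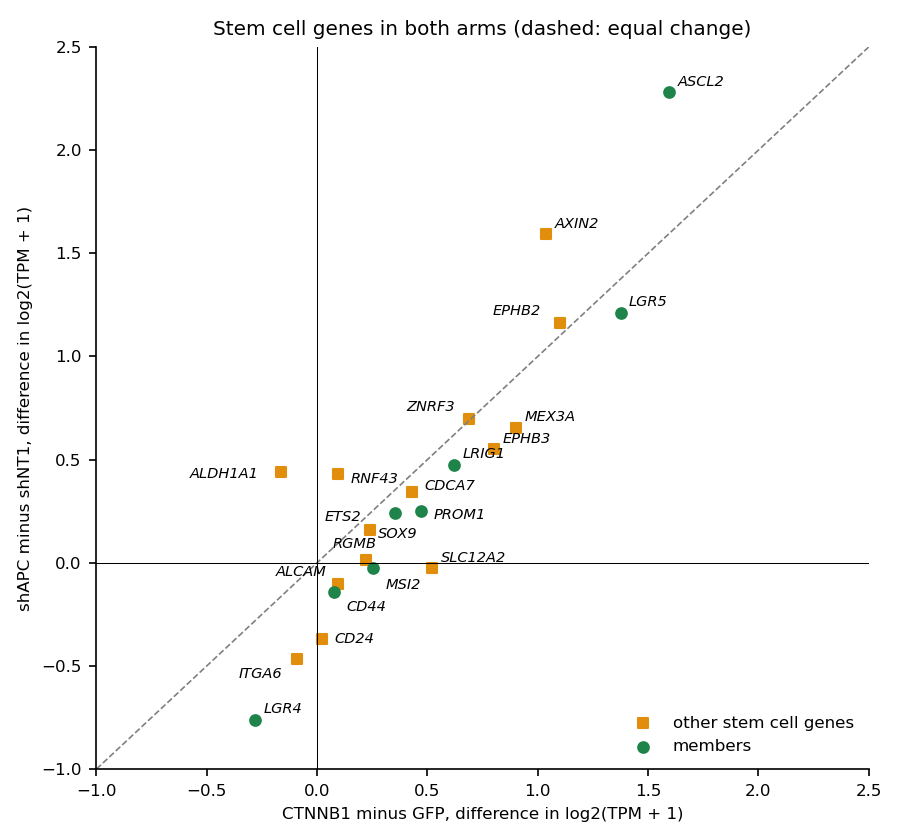
Difference in log2(TPM + 1) for CTNNB1 minus GFP (x axis) and shAPC minus shNT1 (y axis) of the 8 members tested in both arms (circles) and 14 other stem cell genes (squares). The dashed line marks equal change. ASCL2 (1.60, 2.28) and AXIN2 (1.04, 1.59) lie above the line, and LGR4 (-0.28, -0.76), ITGA6 and CD24 lie below it.

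Of 12 close relatives of the members, 4 (SOX8, LRIG2, LRIG3 and PROM2) were tested in each arm. PROM2, the relative of PROM1, was called lower with CTNNB1 (27.1 ± 1.2 to 22.9 ± 1.2 TPM, SD, n = 3 each, log2 difference -0.23, limma adjusted p = 0.025). It was the only 1 of the 4 called in that arm, beside 23.5% of all genes. None of the 4 was called in the shAPC arm by limma, beside 22.1% of all genes. SOX8 was the only 1 there with an unadjusted p under 0.05 (1.20 ± 0.10 to 1.75 ± 0.21 TPM, SD, n = 3 each, limma adjusted p = 0.082). ASCL3, SOX10 and PROX2 were listed at 0 in every library. Of 5 antisense neighbours sought, SOX9-AS1 and PROX1-AS1 had a row, with group means of 0.088 to 0.346 TPM and 0.036 to 0.269 TPM. Whether the authors counted by strand is not given in the sources used here, so reads of PROX1 and its antisense neighbour cannot be told apart.

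The genes most like LGR5 over the 12 libraries, by Pearson correlation of log2(TPM + 1) among 9438 genes with a mean of at least 5 TPM, were RHOB (r = 0.987), FILIP1L (0.985) and FRMD5 (0.983). RHOB, a small GTPase, averaged 32.4 and 33.9 TPM in GFP and shNT1 and 57.9 and 56.1 TPM in CTNNB1 and shAPC. Those most like ASCL2 were TSC22D1 (r = 0.982), AXIN2 (0.972) and RGCC (0.970). TSC22D1 averaged 38.8, 63.5, 39.3 and 86.2 TPM in GFP, CTNNB1, shNT1 and shAPC. The libraries fall into 4 groups, so these values describe shared group levels and carry no p.

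The authors' deposited tables give their own limma values. In the authors' deposited table for CTNNB1, the log2 fold change was 1.38 for LGR5 (adjusted p = 3.6e-04), 1.92 for ASCL2 (adjusted p = 0.0035), -0.35 for LGR4 (adjusted p = 0.0041) and 2.09 for PROX1 (adjusted p = 0.0085). In the authors' deposited table for APC it was 1.31 for LGR5 (adjusted p = 0.0019), 2.83 for ASCL2 (adjusted p = 6.7e-04), -0.73 for LGR4 (adjusted p = 0.0018) and 1.92 for PROX1 (adjusted p = 5.5e-04). For SOX9 in the APC comparison the authors' deposited table gives 0.28 with an adjusted p of 0.021. For CD44 the authors' deposited tables give 0.01 and -0.10, with adjusted p-values of 0.91 and 0.23. An adjusted p under 0.05 was given for 8 of the 10 members in the authors' deposited table for CTNNB1 and for 7 in the authors' deposited table for APC, beside 9.42% and 9.01% of their 28008 rows. Those rows include genes at or near 0 TPM, such as TNFRSF19. The shares are therefore unlike the 23.5% and 22.1% of the 11624 and 11834 genes tested here.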

How the data were processed

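RNA was measured by RNA-seq in 12 HT-29 libraries. The authors deposited TPM per gene symbol, and every column had the same sum. STAR 2.7.3a, limma and the build hg38 are named in the submitters' processing notes, with no role or order. The quantifier and annotation are not given in the sources used here. Depth cannot be read from TPM and is unknown. For each arm the authors deposited a table from limma too, holding log2 fold changes and, per the file headers, p-values and adjusted p-values. In the APC table a negative value means lower in shAPC: APC itself has -1.41.

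Each arm was fitted with limma 3.58.1 (R 4.3.3) on log2(TPM + 1), with a mean-variance trend, keeping genes whose TPM averaged 1 or more over the libraries fitted. The difference between arms used all 12 libraries. Calls needed a Benjamini-Hochberg adjusted p under 0.05 over all genes tested. The fits were tested on simulated data. Gene positions and promoters are RefSeq (GRCh38.p14), and 6 of 10 members had a promoter window. Named genes were all members, list genes called in both arms, up to 3 more per list by size, and the 3 genes most correlated with LGR5 and with ASCL2. The members and lists were chosen with earlier results of these data known.

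Replicate numbers are shared across groups and the labels do not say what they stand for. Each control library was correlated with each perturbed library of its arm, using the deviation of each gene's log level from its group mean. These values are not correlations of the levels themselves. Same-numbered libraries had correlations of 0.070 to 0.22 in the CTNNB1 arm, above the -0.18 to 0.069 of differently numbered libraries (means 0.13 and -0.07). In the shAPC arm the correlations were -0.21 to -0.01, against -0.12 to 0.20 (means -0.12 and 0.06). The main fits did not treat same-numbered libraries as pairs, and a replicate block was an alternative. Whether the numbers stand for shared handling was not tested. Alternatives were another pseudocount (0.1), no filter, a minimum mean of 5 TPM, median-ratio scaling, quantile normalization, no variance trend, a replicate block, all 4 groups in a single fit, a threshold of 0.01, and fits without each library.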

Additional observations from a re-analysis of the deposited data

Results flagged for a closer look

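A test of the difference between the arms picked out 3 members. ASCL2 had a CTNNB1 effect minus shAPC effect of -0.69 on the log2 scale (limma adjusted p = 0.0054), with means of 1.95 and 7.98 TPM in GFP and CTNNB1 and of 1.76 and 12.4 TPM in shNT1 and shAPC. LGR4 had a difference of 0.48 (limma adjusted p = 0.0035), with means of 168 and 138 TPM and of 172 and 101 TPM. MSI2 had a difference of 0.28 (limma adjusted p = 0.037), with means of 52.3 and 62.7 TPM and of 61.8 and 60.6 TPM. The MSI2 call was lost in 5 of 8 alternatives and in 8 of 12 fits without a library. For MSI2 the GFP mean was the lowest of the 4 groups. Vector, collection day and doxycycline cannot be told apart from the arm.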

How the results depend on the processing

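Over all alternatives, 393 of 429 member values kept their direction and their side of the threshold, 28 lost a call, 3 gained one and 5 changed sign. Of the 5, none was called. The log2 difference of MSI2 in the shAPC arm became 0.016 with median-ratio scaling and 0.049 after quantile normalization, and lay between -0.060 and 0.0039 without single libraries, positive only without shNT1 replicate 1. Under quantile normalization the difference between arms became -0.012 for LGR5 and -0.0022 for LRIG1. LGR5, ASCL2, LRIG1 and LGR4 kept their calls in both arms under every alternative that tested them, with log2 differences in the CTNNB1 arm of 1.30 to 1.44, 1.48 to 1.97, 0.55 to 0.65 and -0.35 to -0.27 with all libraries kept. Of the 8 members above 1 TPM in both control groups, 6 to 7 were called in the CTNNB1 arm, 4 to 6 in the shAPC arm and 2 to 5 in the difference between arms, where 5 came without CTNNB1 replicate 3. The replicate block gave 7, 5 and 3, with SOX9 losing its call in the shAPC arm (0.24, adjusted p = 0.068). Over all genes it gave 2895 calls in the CTNNB1 arm, against 2730. In the difference PROX1 passed without the variance trend (-0.36, adjusted p = 0.046) and stood at -0.010 with a pseudocount of 0.1 (adjusted p = 0.99). Over all genes, an adjusted p under 0.01 left 1253, 1151 and 628 calls in the CTNNB1 arm, the shAPC arm and the difference, against 2730, 2615 and 1885. The other alternatives with all libraries kept gave at most 2895, 2988 and 1913 calls. Leaving out a library gave 1499 to 3190, 1484 to 2252 and 995 to 2143 calls. The cause of these shifts was not tested.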
